A study of Mus musculus with 2 samples.

Results

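The 9 genes described here encode the nuclear receptors through which hepatocytes sense lipids, bile acids, foreign compounds and estrogen. They were taken by symbol from the 32285 gene rows of the filtered matrices of both sections, where each of the 9 has 1 row. They are Rxra (RXRα), Nr1i3 (CAR), Nr1i2 (PXR), Nr1h4 (FXR), Nr0b2 (SHP), Nr5a2 (LRH-1), Nr1h3 (LXRα), Ppara (PPARα) and Esr1 (ERα). The rule names symbols and reads no expression value, although these genes were proposed with earlier results of these data known. Spatial transcriptomics (ST, 10x Visium) was performed on 1 liver section of 1 mouse fed normal chow (NCD) and 1 liver section of 1 mouse fed a 60% high-fat diet (HFD), the NAFLD model of the study. Both animals were male C57BL/6J mice, 5 weeks old on arrival, kept on their diet for 14 weeks and then given distilled water orally each day for 8 weeks as the vehicle of a drug arm that was not analysed here. The livers were perfused, embedded in OCT and cut at 10 µm. The labels also carry the tags hematopoietic stem cell and immune cell. The sections were dominated by hepatocyte transcripts instead, with Alb, Apoa1, Ttr and Serpina1a together at 77528 and 84820 UMIs per 1000000 UMIs (CPM) in the NCD and HFD sections.

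A nuclear receptor is a transcription factor switched by a small molecule that enters the cell. RXRα is the shared partner that pairs with PPARα, FXR, PXR, CAR and LXRα on DNA, whereas SHP lacks a DNA-binding domain and represses other receptors, and LRH-1 binds DNA alone. The liver lobule runs from the portal triad, where blood enters, to the central vein, where it leaves, and many metabolic genes of hepatocytes are expressed in one zone more than in the other.

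A Visium spot captures RNA from several cells near the 3′ end of the transcript, and a unique molecular identifier (UMI) lets copies of a molecule be counted as 1. Levels are given as CPM, the UMIs of a gene in a group of spots per 1000000 UMIs of those spots. Because a molecule is counted once whatever its length, CPM of different genes can be set side by side without division by length, although capture can differ between transcripts. All intervals in parentheses are exact 95% intervals for counting error only. With 1 section per diet, diet, animal, section and slide cannot be told apart, and no test was possible. Fewer cells of a type and less RNA per cell also cannot be told apart in a spot.

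Over tissue, 3692 NCD spots had a median of 4187.5 UMIs and 3594 HFD spots a median of 18549 UMIs. The tissue call was less sharp on the NCD slide. Its 1300 spots off tissue had a median of 3383 UMIs and held 19.1% of the slide's UMIs, against 2.93% on the HFD slide. Off the tissue of the NCD slide the 9 receptors together stood at 607 CPM, with Nr1i3 at 138 CPM. The capture areas shared 3173 spot barcodes, which are printed on the slide and do not mark shared cells. Spots with at least 20 UMIs of 10 pericentral and 10 periportal marker genes were ordered by the pericentral share of these UMIs and divided into 3 zones of nearly equal spot number within each section, pericentral, middle and periportal. None of the 9 receptors was a marker. This placed 2514 NCD and 3562 HFD spots. Of the genes held out of the score, the pericentral Slc22a3, Rgn, Nt5e and Aldh1a1 were higher and the periportal Cps1, Arg1, Pck1 and Hsd17b13 lower in the pericentral zone of both sections, with log2 ratios of 2.40 and 1.81 for Nt5e and of 1.21 and 0.25 for Aldh1a1.

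In GRCm38 (GENCODE M21), Nr1i3 spans chr1:171213970-171220701 on the plus strand and overlaps Tomm40l on the opposite strand, Ppara spans chr15:85734983-85802819 on the plus strand, and Esr1 spans chr10:4611593-5005614 on the plus strand. Rxra lies at chr2:27676440-27762957 on the plus strand. Nr1h3, at chr2:91184061-91202834 on the minus strand, overlaps Gm13783 on the same strand, so reads in the shared stretch may fit both genes. Nr1h4 lies at chr10:89454234-89533585, Nr1i2 at chr16:38248323-38294824 and Nr5a2 at chr1:136842571-136960448, all on the minus strand, and Nr0b2 at chr4:133553376-133556536 on the plus strand.

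The promoter windows of the genes that carry the zonal differences below, and of Rxra as the shared partner and the most abundant of the 9, are given as the 250 bases before a RefSeq transcript start (GRCm38.p6), 5′ to 3′ along the gene. Capitals mark the nuclear receptor half-site AGGTCA or its reverse complement TGACCT. The windows are Nr1i3 at chr1:171213720-171213969, Ppara at chr15:85735526-85735775, Esr1 at chr10:4611739-4611988 and the second start of Rxra at chr2:27709042-27709291, all on the plus strand.
Nr1i3: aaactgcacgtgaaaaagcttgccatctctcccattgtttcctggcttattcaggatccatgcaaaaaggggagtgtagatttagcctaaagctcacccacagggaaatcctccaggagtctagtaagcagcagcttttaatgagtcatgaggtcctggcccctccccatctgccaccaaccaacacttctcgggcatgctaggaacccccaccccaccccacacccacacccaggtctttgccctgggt
Ppara: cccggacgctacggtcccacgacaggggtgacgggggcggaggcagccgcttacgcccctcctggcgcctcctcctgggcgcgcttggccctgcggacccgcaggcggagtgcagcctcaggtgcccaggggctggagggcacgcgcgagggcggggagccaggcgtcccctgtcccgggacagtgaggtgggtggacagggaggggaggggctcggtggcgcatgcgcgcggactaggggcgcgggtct
Esr1: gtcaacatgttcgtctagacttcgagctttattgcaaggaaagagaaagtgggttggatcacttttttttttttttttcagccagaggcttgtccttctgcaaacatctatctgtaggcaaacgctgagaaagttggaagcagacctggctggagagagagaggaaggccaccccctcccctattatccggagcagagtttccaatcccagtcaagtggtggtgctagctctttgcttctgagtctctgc
Rxra: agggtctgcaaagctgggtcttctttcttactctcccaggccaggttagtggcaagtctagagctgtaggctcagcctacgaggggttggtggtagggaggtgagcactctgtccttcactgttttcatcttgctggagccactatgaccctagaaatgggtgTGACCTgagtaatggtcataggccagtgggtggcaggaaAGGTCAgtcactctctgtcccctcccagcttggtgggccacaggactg

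These windows differ in base composition. The Ppara window had 76.4% G or C and 27 CpG dinucleotides, the Nr1i3 window 53.2% and 2, and the printed Esr1 window 47.6% and 4, whereas the median of 32851 windows of the same length was 52.4% and 6. A second Esr1 window, at chr10:4709908-4710157, had 59.6% and 7 and no half-site. The second-start window of Rxra, chosen for its half-sites, had 55.2% and 1, and the first-start window, at chr2:27676951-27677200, had 81.2% and 40 and no half-site. The second-start window holds a half-site on each strand, 87 and 48 bases before the start. All 9 genes were matched, with 13 windows in all, and 3 of the 13 held AGGTCA on either strand (one each of Nr1h4, Nr5a2 and Rxra), against 14.02% of all windows. The letters TCAAGGTCA (an LRH-1 site, which contains the half-site), CTTTGAT (a TCF site) and CAAAGTCCA (an HNF4A site), searched on both strands, occurred in none of the 13 windows and in 0.387%, 3.21% and 0.384% of all windows. The inverted and the direct repeat of the half-site with 1 base between the copies, known as FXR and PPAR elements, were also in none of the 13, and in 0.00609% and 0.0335% of all windows.

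Rxra and Nr1i3 were the most abundant of the 9 in both sections, and Esr1 the least. Rxra stood at 131 CPM (127 to 135) in the NCD liver and 155 CPM (152 to 158) in the HFD liver, and Nr1i3 at 127 CPM (123 to 131) and 121 CPM (119 to 124). The bile acid sensor Nr1h4 stood at 81.2 CPM in both (78.0 to 84.5 and 79.2 to 83.3). Nr1h3, the oxysterol sensor, followed with 71.7 CPM (68.7 to 74.8) and 81.3 CPM (79.2 to 83.4), and Nr0b2, the repressor that FXR induces, with 58.9 CPM (56.1 to 61.7) and 58.0 CPM (56.3 to 59.8). The lower 4 genes spanned a wide range. Nr5a2 had 30.7 CPM (28.7 to 32.8) and 22.5 CPM (21.4 to 23.6), and Nr1i2 had 29.0 CPM (27.1 to 31.1) and 38.7 CPM (37.3 to 40.2). Ppara, the fatty acid sensor, had 13.5 CPM (12.2 to 14.9) and 15.0 CPM (14.1 to 15.9), and Esr1 had 6.89 CPM (5.97 to 7.91) and 8.79 CPM (8.12 to 9.50). Neighbours in this order that did not differ beyond counting error were Rxra and Nr1i3, and Nr5a2 and Nr1i2, in the NCD liver, and Nr1h3 and Nr1h4 in the HFD liver.

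Set among the 49 nuclear receptor genes, Rxra and Nr1i3 held ranks 2 and 3 by CPM in both sections, behind Hnf4a (153 and 187 CPM), the receptor that maintains hepatocyte identity. Nr1h4, Nr1h3 and Nr0b2 took ranks 5 to 7 in both. Nr1i2 ranked 11 in the NCD liver and 8 in the HFD liver, and Nr5a2 ranked 10 and 16. Ppara ranked 18 and 19, and Esr1 ranked 25 and 24.

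**Figure D1:**
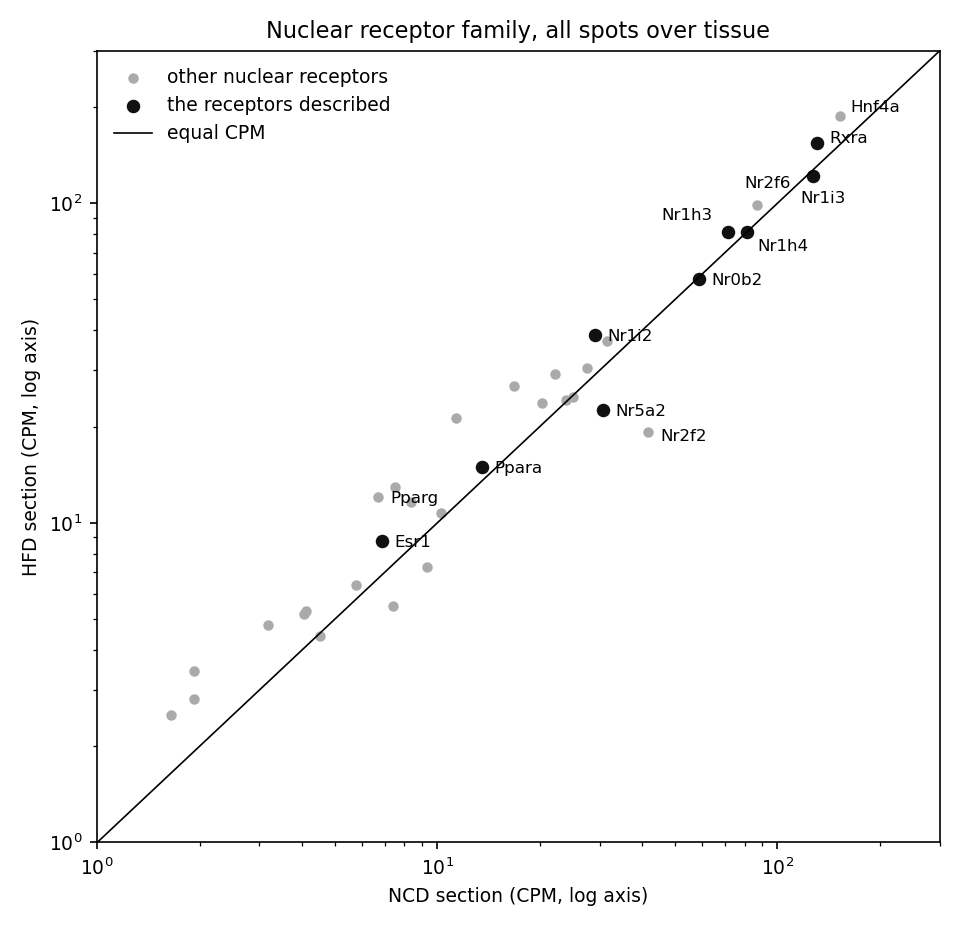
Level of 34 nuclear receptor genes that reached 200 UMIs in total, in CPM over all spots over tissue, NCD section on the horizontal and HFD section on the vertical axis, both logarithmic. Each point is 1 gene, black for the 9 receptors described and grey for 25 others, and the line marks equal CPM. Rxra and Nr1i3 lie near the top behind Hnf4a, Nr1i2 lies above the line and Nr5a2 below it.

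Nr1i3 (CAR), a sensor of foreign compounds, was higher towards the central vein in both sections, by nearly the same amount. It stood at 167, 128 and 85.4 CPM in the pericentral, middle and periportal zones of the NCD section and at 161, 132 and 84.5 CPM in those of the HFD section. The pericentral level was 1.96-fold the periportal level in the NCD liver (log2 ratio 0.97, 0.84 to 1.10) and 1.91-fold in the HFD liver (0.93, 0.86 to 1.01). The log2 difference between these ratios, HFD minus NCD, was -0.04 (-0.19 to 0.11). In 5 equal bins of the same score, from periportal to pericentral, Nr1i3 stood at 81.1, 101, 127, 155 and 171 CPM in the NCD liver and at 72.2, 116, 129, 152 and 165 CPM in the HFD liver. The level was thus higher at each step towards the central vein in both sections.

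Cholangiocyte markers, which mark bile ducts, ran the other way. Their 6 genes summed to 10.7 CPM in the pericentral and 113 CPM in the periportal zone of the NCD section, and to 76.0 and 341 CPM in the HFD liver. Most of that sum was Spp1, which macrophages can also express, at 8.25 and 97.2 CPM in the NCD liver and 71.0 and 314 CPM in the HFD liver. The other 5 markers together ran the same way, at 2.49 and 16.2 CPM and at 5.02 and 27.9 CPM. Without the 10% of spots richest in these markers, the log2 ratio of Nr1i3 was 0.86 in the NCD liver and 0.78 in the HFD liver, and without the spots holding a UMI of a marker other than Spp1 it was 0.92 and 0.75. In those rich spots Nr1i3 was at 88.7 CPM against 131 CPM in the other NCD spots and at 73.3 CPM against 128 CPM in the other HFD spots. Off the tissue of the NCD slide, where 1055 spots could be placed on the score, the log2 ratio of Nr1i3 was 0.14 (-0.10 to 0.37), and with all spots of the NCD capture area it was 0.78.

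Ppara (PPARα), which drives fatty acid oxidation and ketone production in fasting, had different profiles in the sections. Its levels in the pericentral, middle and periportal zones were 14.2 CPM (11.9 to 17.0), 13.2 CPM (11.1 to 15.6) and 13.0 CPM (10.8 to 15.7) in the NCD liver, where all 3 intervals overlapped. In the HFD section they were 20.6 CPM (18.7 to 22.6), 16.6 CPM (14.8 to 18.4) and 9.80 CPM (8.71 to 11.0), and no 2 of these intervals overlapped. The pericentral to periportal log2 ratio was 0.13 (-0.25 to 0.51) in the NCD liver and 1.07 (0.85 to 1.29), or 2.10-fold, in the HFD liver. The difference between these ratios, HFD minus NCD, was 0.94 (0.50 to 1.38). It rests on 126 and 113 Ppara UMIs in the pericentral and periportal zones of the NCD section and 455 and 292 in those of the HFD section, and it was lowest, at 0.58, when every spot was thinned to 3000 UMIs. Over all zones only 91 NCD and 189 HFD spots then held a Ppara UMI, so the thinned value is less precise, and no interval was computed for it. In the 5 bins, from periportal to pericentral, Ppara ran 8.88, 13.3, 16.1, 19.4 and 20.7 CPM in the HFD liver, higher at each step although only the first step separated the intervals of neighbouring bins, and 13.5, 12.3, 12.4, 16.3 and 12.9 CPM in the NCD liver, without such an order. The spots differed in depth between zones, with median UMIs of 17492, 14677 and 24322 (pericentral, middle and periportal) in the HFD liver and 7528, 9225.5 and 7193 in the NCD liver. The part of depth in this difference was not tested beyond thinning.

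Esr1 (ERα), the estrogen receptor, ran in the opposite direction to Nr1i3. It stood at 4.97 CPM (3.61 to 6.67), 5.57 CPM and 9.70 CPM (7.73 to 12.0) in the pericentral, middle and periportal zones of the NCD section. In the HFD section the levels were 5.83 CPM (4.87 to 6.93), 8.33 CPM and 11.2 CPM (10.1 to 12.5). The periportal level was 1.95-fold the pericentral level in the NCD liver and 1.93-fold in the HFD liver, and the log2 ratios, pericentral to periportal, were -0.96 (-1.52 to -0.42) and -0.95 (-1.25 to -0.65). The NCD value rests on only 44 pericentral and 84 periportal UMIs, under the minimum of 200 for a call. The bins from periportal to pericentral gave 11.2, 6.76, 5.78, 5.49 and 4.65 CPM in the NCD liver and 12.3, 9.22, 8.55, 6.76 and 5.21 CPM in the HFD liver. Esr1 was thus lower at each step towards the central vein in both, although the intervals of neighbouring bins overlapped. Without cholangiocyte-rich spots the log2 ratios were -0.89 and -0.94.

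**Figure D2:**
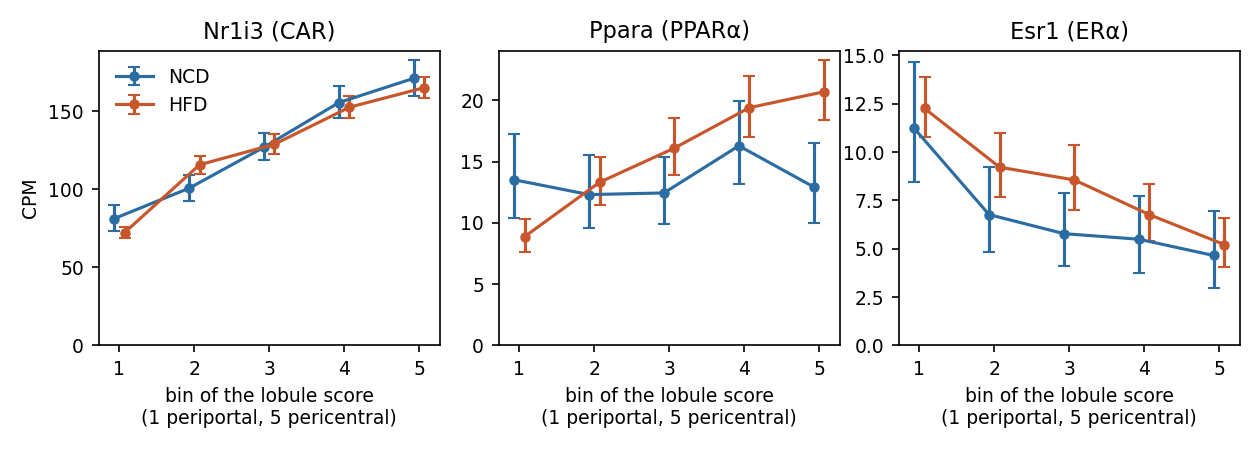
Level in CPM of Nr1i3, Ppara and Esr1 in 5 bins of the lobule score, from periportal (1) to pericentral (5), in the NCD and HFD sections. Points are pooled levels and bars exact 95% intervals for counting error. Nr1i3 is higher and Esr1 lower with each step along the score in both sections, while Ppara runs from 8.88 to 20.7 CPM in the HFD liver and lies between 12.3 and 16.3 CPM in the NCD liver.

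The remaining receptors differed less between zones. Rxra was higher pericentrally in both sections, at 142 and 116 CPM (pericentral and periportal) in the NCD liver and 173 and 138 CPM in the HFD liver, with log2 ratios of 0.29 (0.17 to 0.41) and 0.33 (0.27 to 0.39). Nr5a2 (LRH-1), which promotes bile acid synthesis, had ratios of 0.31 (0.06 to 0.56) and 0.39 (0.22 to 0.56). After thinning every spot to 3000 UMIs, the NCD and HFD ratios were 0.48 and 0.01 for Nr5a2. Those of Rxra were then 0.14 and 0.32. The HFD grade of Nr5a2 thus depended on that setting. Nr1h4 had a ratio of 0.08 (-0.08 to 0.23) in the NCD liver and 0.30 (0.21 to 0.39) in the HFD liver. Across zones Nr1h3 and Nr1i2 were nearly level. Their log2 ratios were 0.10 (-0.07 to 0.26) and -0.04 (-0.30 to 0.22) in the NCD liver and 0.13 (0.04 to 0.22) and 0.18 (0.05 to 0.31) in the HFD liver. Nr0b2 was the gene whose intervals lay on opposite sides of 0, at 57.9 and 66.6 CPM (pericentral and periportal) in the NCD liver and 61.9 and 55.2 CPM in the HFD liver, with log2 ratios of -0.20 (-0.38 to -0.03) and 0.16 (0.06 to 0.27). When every spot was thinned to 3000 UMIs its NCD ratio was 0.14, so its direction changed with that setting. Only 344 NCD spots then held an Nr0b2 UMI, and no interval was computed for the thinned value. The sign of the NCD ratio was kept in 12 of 13 alternatives.

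**Figure D3:**
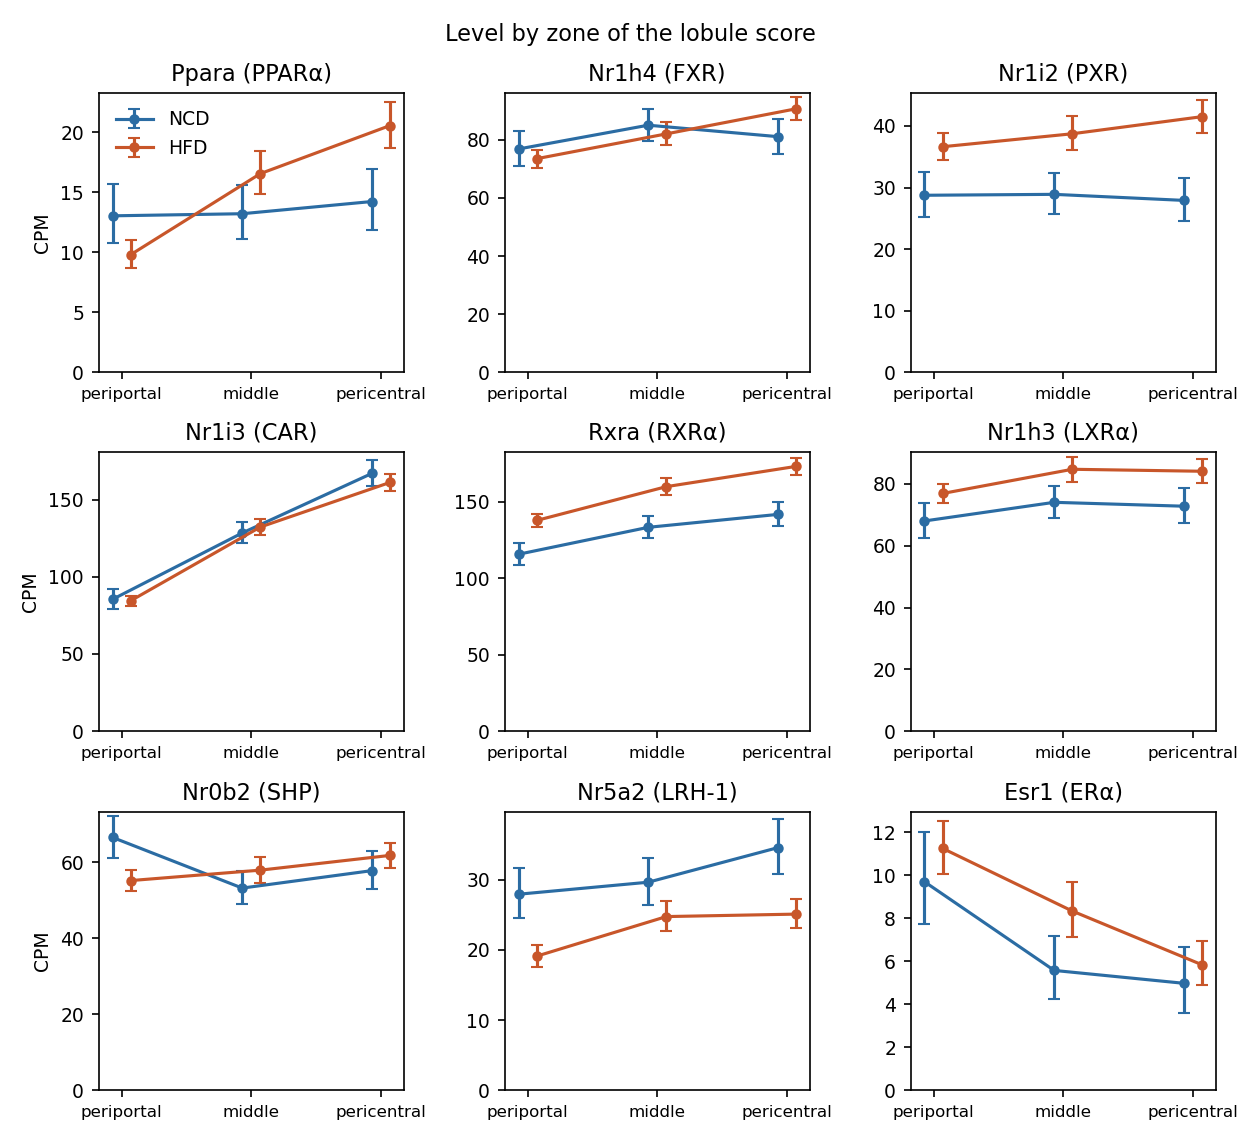
Level in CPM of the 9 receptors in the periportal, middle and pericentral zones of the lobule score, NCD section in blue and HFD section in orange. Points are pooled levels, bars are exact 95% intervals for counting error, and every vertical axis starts at 0 with its own range. Nr1i3 and Esr1 have the same direction in both sections, and the intervals of Ppara are apart in the HFD liver alone.

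A gene was called apart when its levels differed at least 1.5-fold and it had at least 200 UMIs over the spots compared. In the NCD section 8 of the 9 receptors reached that minimum, Esr1 being the exception, and 1 of them, Nr1i3, was apart between the outer zones, against a background of 8.43% of 5490 genes (6.36% higher and 2.08% lower pericentrally). In the HFD section all 9 reached it and 3 were apart (Nr1i3 and Ppara higher pericentrally, Esr1 lower), against 7.23% of 9316 genes (4.21% higher and 3.03% lower). The median log2 ratio of the receptors that reached the minimum was 0.11 in the NCD liver and 0.30 in the HFD liver, beside 0.14 and 0.09 over all genes. Read against that NCD shift of 0.14, the log2 ratios of Nr1i3 and Esr1 in the NCD liver were 0.83 and -1.10, and that of Ppara was -0.01.

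**Figure D4:**
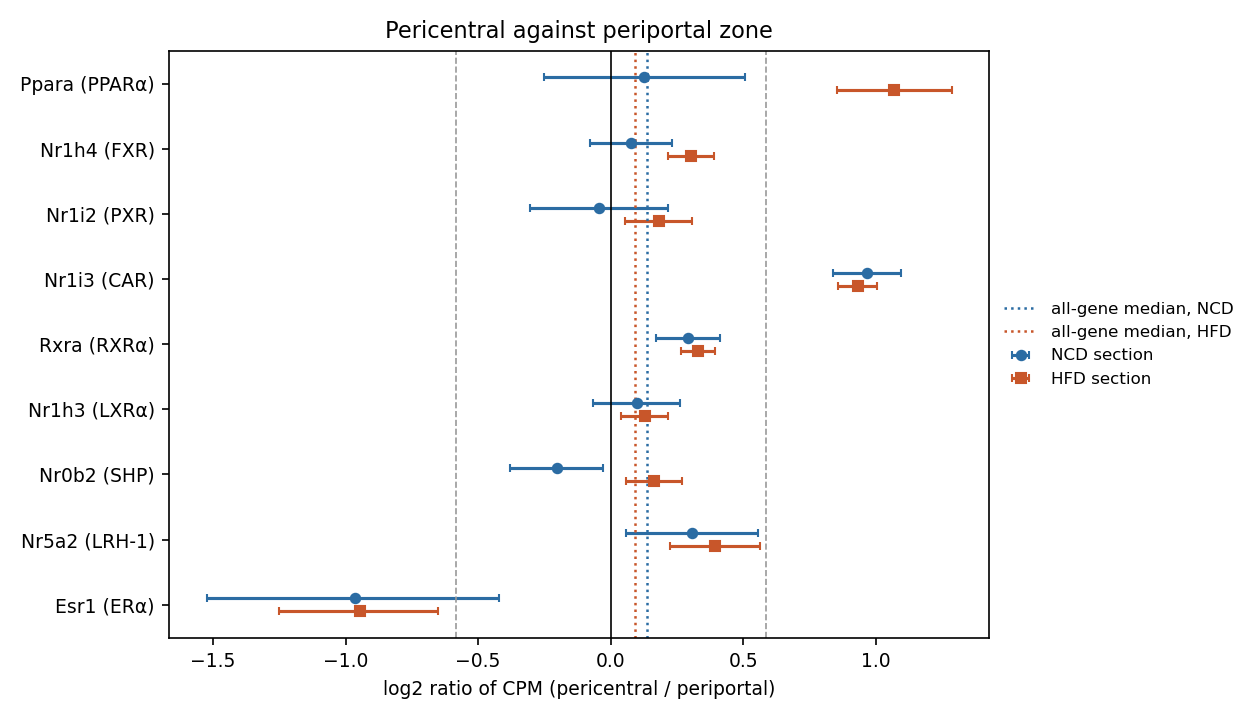
Log2 ratio of CPM in the pericentral to the periportal zone for each receptor, in the NCD section (circles) and the HFD section (squares), with exact 95% intervals for counting error. Dotted lines are the medians of all genes (0.14 and 0.09), and dashed lines mark 1.5-fold. Nr1i3 lies near 1 in both sections, Esr1 near -1 in both, and Ppara near 1 in the HFD liver alone.

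Between the sections the 9 receptors differed little. None was 1.5-fold higher or lower in the HFD liver over all spots, against a background of 23.9% of 10665 genes higher and 4.56% lower, 28.4% in all. The median log2 ratio of all genes, HFD to NCD, was 0.23, and the median of the 9 receptors was 0.15. With that median subtracted, 13.8% of genes were higher and 9.47% lower.

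Nr1i2 and Nr5a2 were the receptors farthest from equality. Nr1i2 (PXR), the sensor of foreign compounds and bile acids that controls Cyp3a genes, was higher in the HFD liver, by 1.33-fold (log2 ratio 0.42, 0.30 to 0.53), or 0.18 above the median of all genes. The excess held in each zone, at 41.5 against 27.9 CPM in the pericentral, 38.7 against 28.9 CPM in the middle and 36.6 against 28.7 CPM in the periportal zone. Nr5a2 was lower in the HFD liver, by 1.36-fold (log2 ratio -0.45, -0.57 to -0.33), or -0.68 relative to the median of all genes, which is past 1.5-fold. It was lower in each zone too, at 25.1 against 34.6 CPM, 24.7 against 29.6 CPM and 19.1 against 27.9 CPM from pericentral to periportal.

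Of the other 7, Esr1 had a log2 ratio of 0.35 (0.12 to 0.59), which was 0.03 when every spot was thinned to 3000 UMIs. Only 45 NCD and 78 HFD spots then held an Esr1 UMI, and no interval was computed for the thinned value. Rxra had 0.24 (0.19 to 0.30), at the median of all genes, and Nr1h3 had 0.18 (0.11 to 0.25). Ppara had 0.15 (-0.02 to 0.32) over all spots. Relative to the median of all genes the ratios of Ppara and Nr1h3 turned slightly negative, to -0.09 and -0.05. Nr1h4, Nr0b2 and Nr1i3 were close to equal CPM, with 0.00 (-0.07 to 0.07), -0.02 (-0.10 to 0.06) and -0.06 (-0.12 to -0.01), and lay 0.23 to 0.30 below that median.

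Within the zones, the sections differed in opposite directions for Ppara. Its HFD to NCD log2 ratio was 0.53 (0.24 to 0.83) in the pericentral and -0.41 (-0.73 to -0.09) in the periportal zone, with 0.33 in the middle. Nr0b2 was lower in the HFD liver beyond counting error in the periportal zone, at -0.27 (-0.41 to -0.13), against 0.10 pericentrally and 0.12 in the middle. The ratios of Rxra ranged from 0.25 to 0.29 and those of Nr1h3 from 0.18 to 0.21 over the zones. No receptor was called in any zone, against 25.7%, 27.9% and 27.2% of genes apart in the pericentral, middle and periportal zones. With each zone's median of all genes subtracted, Nr5a2 was past 1.5-fold lower in the pericentral (-0.65) and periportal (-0.78) zones and Ppara in the periportal zone (-0.65), against 22.3% and 21.6% of genes apart in those zones. Esr1 did not reach the minimum in the pericentral zone.

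**Figure D5:**
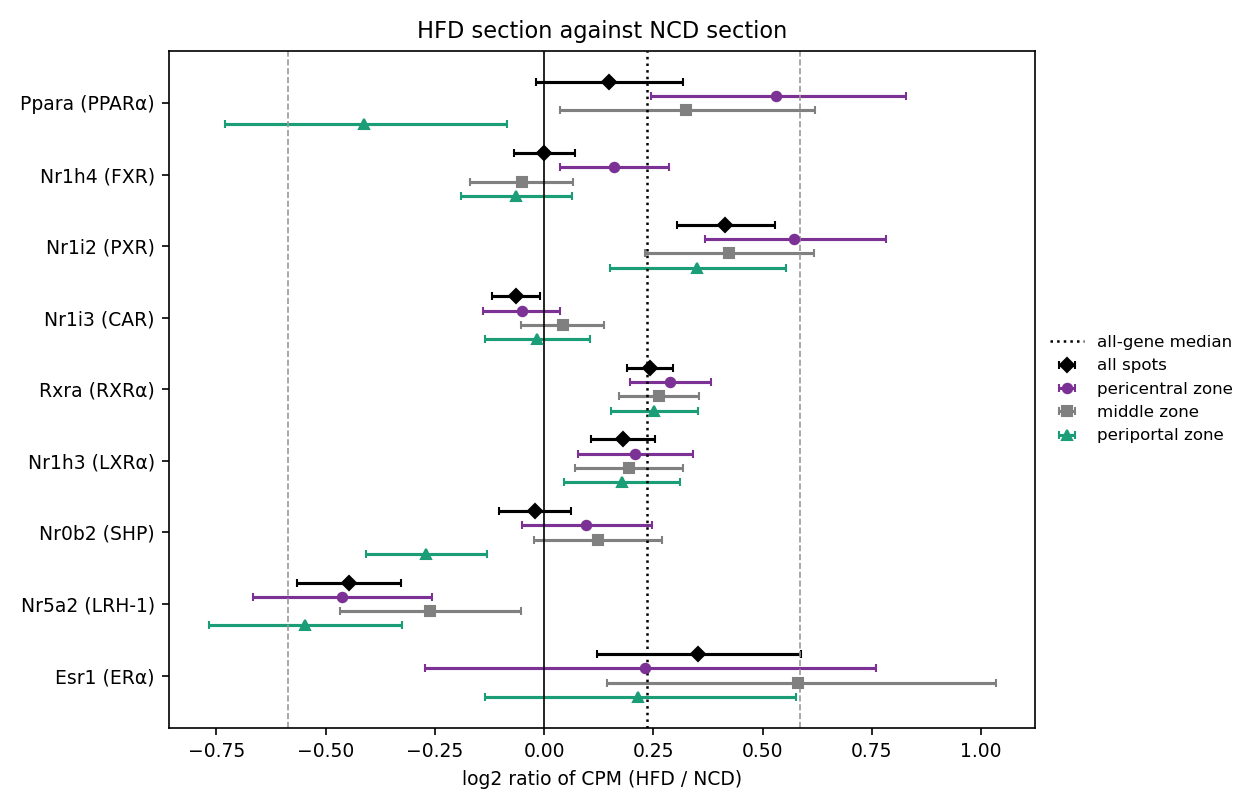
Log2 ratio of CPM in the HFD section to the NCD section for each receptor, over all spots and within the pericentral, middle and periportal zones, with exact 95% intervals for counting error. The dotted line is the median of all genes (0.23), and dashed lines mark 1.5-fold. Nr5a2 lies below 0 and Nr1i2 above 0 in all 4 groups of spots, and Ppara lies on opposite sides of 0 in the outer zones.

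The share of spots with a UMI followed depth. Unthinned, Nr1i3 was found in 44.1% of NCD spots and 84.6% of HFD spots. At 3000 UMIs per spot, which left out 1585 NCD and 56 HFD spots, the shares were 30.3% (28.4 to 32.3) and 30.2% (28.6 to 31.7). Nr1i2 went from 17.8% and 49.8% to 8.16% (7.03 to 9.42) and 11.7% (10.6 to 12.8), and Nr5a2 from 18.9% and 34.0% to 9.40% (8.18 to 10.7) and 6.92% (6.11 to 7.81). At equal depth the order of the sections was thus that of the CPM for Nr1i2 and Nr5a2. Ppara was found in 4.32% (3.49 to 5.28) and 5.34% (4.62 to 6.13) of the thinned spots and Esr1 in 2.14% and 2.20%.

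Spots rich in transcripts of other cells were compared with the remaining spots, taking the 10% of spots with the highest share of a marker list among those with at least 1000 UMIs. Nr1h3, which macrophages also express, was higher in Kupffer cell-rich spots of both sections, at 98.0 against 70.2 CPM in the NCD liver (log2 ratio 0.48, 0.22 to 0.74) and 99.1 against 79.4 CPM in the HFD liver (0.32, 0.20 to 0.44). The NCD Kupffer cell-rich spots were shallower, with a median of 2754 against 7287 UMIs, whereas those of the HFD section had 18160 against 18622. In the HFD section 1 receptor, Nr1i3, was at least 1.5-fold lower in cholangiocyte-rich spots (-0.81, -0.92 to -0.69), against 2.6% of genes. Except for Esr1 (0.34, 0.01 to 0.65), the others were lower there too. Their ratios ran from -0.41 (Ppara) to -0.14 (Nr1h3), with intervals below 0. Cholangiocyte markers were higher periportally, and whether zone accounts for these values was not tested. In HFD spots rich in sinusoidal endothelial markers 1 receptor, Esr1, was at least 1.5-fold lower (-0.60, -1.13 to -0.11), against 1.95% of genes. In the NCD section Esr1 had a log2 ratio of 0.14 (-1.09 to 1.15) there, on 8 UMIs in the rich spots. Esr1 and the endothelial markers were also graded in opposite directions over the zones, since those markers summed to 298 CPM in the pericentral and 207 CPM in the periportal zone of the HFD section. Whether zone accounts for the low Esr1 in these spots was not tested. In HFD spots rich in markers of lipid-associated macrophages, Esr1 was higher (0.41, 0.05 to 0.75) and Nr1i3 lower (-0.20, -0.31 to -0.09). Of the corresponding NCD spots 40.7% held no UMI of these markers, so the NCD values, such as -0.28 (-0.47 to -0.10) for Nr1h4 and 0.30 (0.03 to 0.56) for Nr5a2, compare spots of which many hold no marker.

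The partners and targets of these receptors were read as lists, with 1.5-fold and 200 UMIs as before. Each count stands beside the all-gene median of 0.23 and the shares over all genes, 23.9% higher and 4.56% lower in the HFD liver. Of the 40 other nuclear receptors 25 reached the minimum, and 7 were higher and 1 lower in the HFD liver, near the shares over all genes, with a median of 0.29. With the median of all genes subtracted, 3 were higher and 3 lower. Among them were Nr2f2 (41.6 and 19.2 CPM in the NCD and HFD sections, log2 ratio -1.12) and Pparg (6.68 and 12.1 CPM, 0.85), the receptor known for fat storage. Of 14 coregulators 13 reached it and 1 was higher, Ppargc1a, the coactivator of fasting metabolism, with 3.99 and 6.004 CPM (0.59). After the median of all genes was subtracted, Ppargc1a was no longer past 1.5-fold and 1 other coregulator was lower.

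The target lists did not move as one. Of 18 PPARα targets 4 were higher and 3 lower, with a median of 0.19, against the 23.9% and 4.56% of all genes. The fasting hormone gene Fgf21 stood at 5.20 and 24.1 CPM (log2 ratio 2.21), whereas the fatty acid hydroxylases Cyp4a14 and Cyp4a10 stood at 2128 and 657 CPM (-1.70) and at 1305 and 467 CPM (-1.48). Of 9 PXR and CAR targets 1 was higher and 5 lower, with a median of -0.79, while Nr1i2 was higher and Nr1i3 near equal. Among them the drug-metabolising enzyme Cyp3a11 stood at 4791 and 1483 CPM (-1.69) and the carboxylesterase Ces2a at 305 and 55.2 CPM (-2.47), and the glutathione transferase Gstm3 was at 16.8 and 67.1 CPM (1.99). Of 10 LXR targets 3 were higher and none lower, with a median of 0.13, against the same shares of all genes. With the median of all genes subtracted, 2 were higher and 2, the sterol transporters Abcg5 and Abcg8, lower. The 3 higher without that subtraction included the fatty acid synthase gene Fasn (44.3 and 137 CPM, 1.63). The others were the sterol exporter Abcg1 (4.99 and 11.0 CPM, 1.14) and the lipogenic regulator Srebf1 (34.2 and 57.5 CPM, 0.75). Srebf1 was no longer past 1.5-fold after the subtraction.

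Genes of the bile acid axis were read in the same way. Of the 4 genes that FXR induces, 2 reached the minimum and 1 was higher, the bile salt export pump Abcb11 (106 and 164 CPM, log2 ratio 0.62), with Abcb4 at 0.15. Abcb11 was no longer past 1.5-fold after the median of all genes was subtracted. None of the 3 genes that FXR and SHP repress was called, although 2 of them, Cyp7a1 and Slc10a1, were past 1.5-fold lower once the median of all genes was subtracted. Cyp7a1, the rate-limiting enzyme of bile acid synthesis, was at 46.4 and 34.1 CPM (-0.44), the bile acid uptake carrier Slc10a1 at 564 and 389 CPM (-0.54) and Cyp8b1 at 384 and 372 CPM (-0.04).

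Several target lists were also graded over the zones. Of the PXR and CAR targets 7 of 9 reached the minimum between the outer zones in either section, and 6 were at least 1.5-fold higher pericentrally in the NCD liver and 4 in the HFD liver, with none lower and medians of 1.11 and 1.00, against 6.36% and 4.21% of all genes higher pericentrally. Of the PPARα targets 5 of 16 were higher pericentrally in the NCD liver and 6 of 18 in the HFD liver, with none lower and medians of 0.26 and 0.40, against the same background. With the median of all genes subtracted, 3 of them were higher in the NCD liver and 6 in the HFD liver. The 5 PPARα targets counted in the NCD liver were thus higher in a zone where Ppara itself was near its periportal level.

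Likeness of profile was measured as Pearson's r of log2(CPM + 1) over 10 points, the 5 bins of each section, against 2576 genes with at least 1000 UMIs in each section. It is a description over points that share libraries and depth. Nr1i3 was most like Chpt1 (r 0.98) and Cyp8b1 (0.98), Ppara like Smim20 (0.94) and Ppp2r5a (0.91), and Esr1 like Sdc1 (0.96) and Rida (0.95). Nr1i2 was most like Tgoln1 (0.99) and Nipsnap1 (0.99), Nr5a2 like Pdcd5 (0.97) and Psme1 (0.96), and Rxra like Gcgr (0.98), the glucagon receptor, and Acaa1b (0.98). Nr1h4 was most like Micos10 (0.98) and Dbi (0.93), and Nr1h3 like Ndufb3 (0.98) and Trip12 (0.98). Nr0b2 had no close match, its highest values being those of Fam162a (0.76) and Fis1 (0.74).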

How the data were processed

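The authors ran Space Ranger 1.3.1 and deposited its UMI counts, not normalized, in 1 table for the whole capture area and 1 for the spots over tissue. The submitters' processing notes name the mm10 build, and the annotation is not given in the sources used here. Both tables of a slide differed by 0 UMIs over shared spots. Spot positions and images were not used here. Gene positions are those of GENCODE M21, which holds 32158 of the 32285 identifiers, and promoter windows those of RefSeq on GRCm38.p6.

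Counts were summed over spots and divided by all UMIs of those spots (CPM). Levels have exact Poisson intervals, ratios exact conditional binomial intervals, shares exact Clopper-Pearson intervals, and differences of ratios exact conditional odds ratio intervals, all at the 95% level. A spot is no replicate, so no p-value was computed. Intervals cover counting error only. The ratio intervals were tested on simulated pooled Poisson counts with known ratios. That is the error the intervals assume, so the simulation does not cover spread between spots, zones or animals. The total depth was 29037988 UMIs (NCD) and 72118803 UMIs (HFD), so NCD values are less precise. Thinning drew each spot to 3000 UMIs with seed 1.

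The genes named are the 9 receptors, up to 3 genes per related list with the largest HFD to NCD difference among genes with at least 200 UMIs, and the 2 genes most like each receptor. One gene that the rule names is not reported here. The receptors and lists were chosen with earlier results of these data known. Tools were scipy 1.17.1, numpy 2.4.6 and pandas 2.3.3 in Python 3.11.15, with matplotlib 3.10.9 for plots. Alternatives changed the scaling, the weighting of spots, the spots used, the zone markers, the cut points and the thresholds. The placed spots alone, equal weight of the zones and both removals of spots holding cholangiocyte markers were chosen after seeing the data.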

Additional observations from a re-analysis of the deposited data

Results flagged for a closer look

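The zonal direction of Nr0b2 differed between the sections. Its pericentral to periportal log2 ratio was 0.16 in the HFD liver and -0.20 in the NCD liver, and the difference, HFD minus NCD, was 0.37 (0.16 to 0.57) by counting error alone. With 1 section per diet this difference was not tested over animals, and the NCD ratio was 0.14 when every spot was thinned to 3000 UMIs. The sign of the NCD ratio was kept in 12 of 13 alternatives.

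The spots off tissue, which the main comparisons did not use, held receptor transcripts. On the NCD slide the 9 receptors together had 4172 UMIs in 1300 spots (607 CPM, 589 to 626), with a pericentral to periportal log2 ratio of 0.08 (-0.03 to 0.19). On the HFD slide they had 984 UMIs in 1398 spots (452 CPM, 424 to 481).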

How the results depend on the processing

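No paired analysis was possible because each diet has 1 section, both numbered replicate 1, and for the same reason no replicate could be left out. Over the alternatives run, no call changed sign. The count of receptors at least 1.5-fold lower in the HFD liver was 0 and became 1 (Nr5a2) when the median of all genes was subtracted. The count apart between the outer zones of the NCD section was 1 and became 0 at 2-fold. In the HFD section it was 3 and became 1 at 2-fold (Ppara), 1 with genes of at least 1000 UMIs (Nr1i3) and 1 after thinning to 3000 UMIs (Nr1i3), since fewer receptors then reached the minimum or the fold. Of 50 values of these counts under the alternatives, 45 stayed within 1.5 times and the others are those given. The log2 ratio between the outer zones ranged from 0.74 to 1.28 (NCD) and 0.75 to 1.19 (HFD) for Nr1i3, from -0.06 to 0.27 and 0.84 to 1.22 for Ppara, and from -1.27 to -0.58 and -1.28 to -0.88 for Esr1. The HFD to NCD log2 ratio ranged from 0.18 to 0.53 for Nr1i2 and from -0.68 to -0.42 for Nr5a2. Of 306 single-gene values under the alternatives, 268 moved by less than their counting interval and 38 moved by more. The NCD section limits the low genes, since Ppara had 393 UMIs and Esr1 200 there.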
